A study of Homo sapiens with 9 samples.

Results

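Compound Kushen Injection (CKI) combines extracts of Kushen and Baituling and was compared with an injection of Kushen alone to find out what the combined preparation changed in the transcriptome beyond the single herb. The comparison rests on 6 of the 9 libraries, 3 of cells treated with CKI and 3 of cells treated with Kushen, and covers every gene tested. MDA-MB-231, an established line from a human breast adenocarcinoma, received CKI at 2.0 mg/mL or Kushen at the same ratio for 48 h, and total RNA was sequenced. The remaining 3 libraries, of cells treated with the Baituling injection at the same ratio and time, are given beside the values as a reference without a test. All groups share the cell line, medium and serum. The injections are separate preparations, so an effect of Baituling and a difference between preparations cannot be told apart.

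Kushen is the root of Sophora flavescens, known for matrine-type alkaloids. Cells that meet a stress or a growth signal switch on immediate early genes first, such as the AP-1 subunits, EGR factors and the MAP kinase phosphatase DUSP1, and NF-kB then drives genes of interleukins and chemokines. Proliferating cells express genes of ribosomal proteins, cytoskeleton, lipid synthesis and mitosis. These groups and the inflammatory groups were examined one after the other.

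Each CKI library held 22830700 to 23556823 counts and each Kushen library 22023427 to 23782071. The 10 most abundant genes took 3.198% to 3.298% of the counts of a CKI library and 4.0% to 4.072% of those of a Kushen library, so the groups did not overlap in this measure. The summed level of 7 MDA-MB-231 markers was 3086 to 3160 CPM in CKI, 3852 to 3989 CPM in Kushen and 5956 to 6022 CPM in Baituling. The marker sums in this paragraph are scaled by library totals, without TMM. Elsewhere CPM is a gene's count per unit of TMM-scaled sequencing depth. Of the 8 markers of A431, another line used in the study, KRT5, KRT6A, DSG3 and DSC3 were at 0 in CKI and Kushen. The 8 together held 216 to 234.4 CPM in CKI, 212.1 to 219.6 CPM in Kushen and 415.6 to 445.6 CPM in Baituling. In Baituling each of the 8 had counts. The 6 blood markers held 8.575 to 9.724 CPM in CKI and 5.303 to 7.358 CPM in Kushen, with HBB at 0 in both. For 8 markers of HepG2, also used in the study, the sums were 49.19 to 53.02 CPM and 34.51 to 36.46 CPM. For 8 luminal or epithelial markers they were 1482 to 1568 CPM and 1760 to 1883 CPM. The summed level of 6 fibroblast markers was 59.01 to 64.25 CPM in CKI and 37.33 to 39.73 CPM in Kushen, with COL1A1 the most abundant, and its part in the results was not tested.

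CKI and Kushen differed in many genes by small amounts. Of 14195 genes tested, 5652 (39.8%) had an adjusted p under 0.05 in edgeR's quasi-likelihood test, 2783 (19.6%) higher and 2869 (20.2%) lower in CKI. These shares of 19.6% and 20.2% are the background for the counts of called genes given below, although they varied with expression level. A change past 2-fold (log2 fold change above 1 or below -1) was called in 270 genes (1.9%), of which 242 (1.7%) were higher and 28 (0.197%) lower. The remaining 5382 called genes, 95.2% of those called, lay under 2-fold, and the median fold of a called gene in either direction was 1.23. The libraries of the groups did not overlap in 7023 genes (49.5% of those tested).

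The balance of directions depended on the size of the change. Below a log2 change of 0.25, 945 called genes were higher and 1259 lower. Between 0.25 and 0.5 the numbers were 1057 and 1245, and between 0.5 and 1 they were 539 and 337. Against a fold of 1.5 as the null, 149 genes passed, 127 higher and 22 lower, and against a fold of 2, 42 passed and each of them was higher. With library totals in place of TMM, 4218 genes were higher and 1837 lower, since that scaling moved the median of all genes by 0.0752 on the log2 scale; changes here are relative to the TMM scale, on which the median of all genes was 0.0079.

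**Figure D1:**
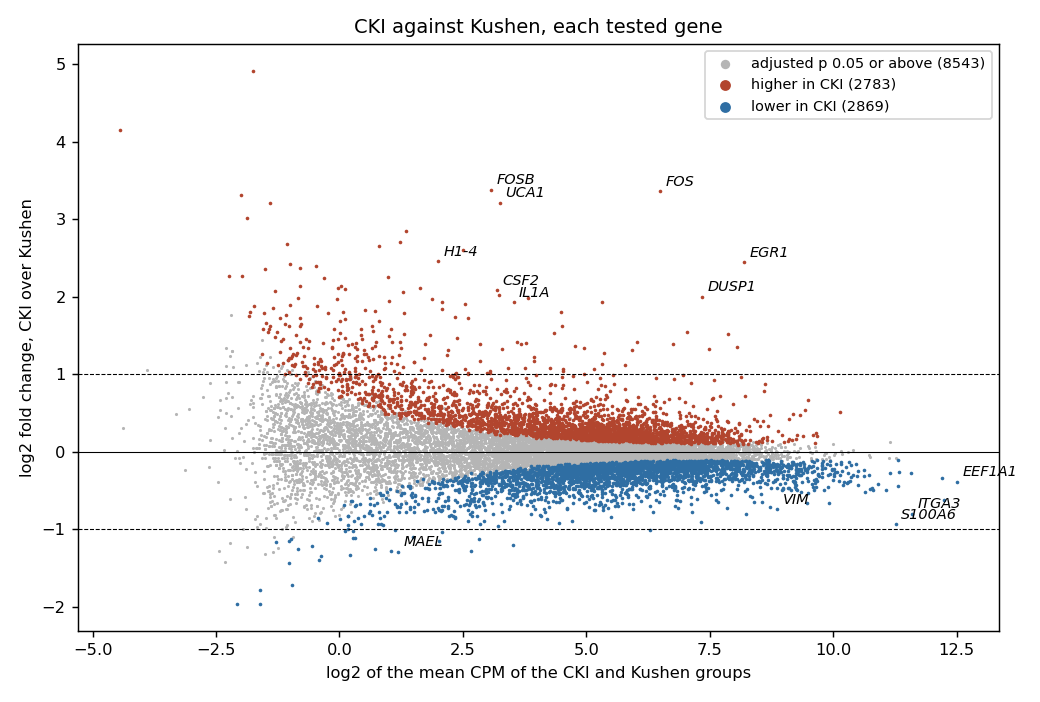
Each point is a tested gene, with the log2 of its mean CPM over the CKI and Kushen groups on the x axis and its log2 fold change (CKI over Kushen) on the y axis. The 242 rises past the upper dashed line (2-fold) reach FOS and FOSB, 28 falls lie past the lower one, and most of the 5652 called genes lie between the lines.

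Abundant genes were more often lower in CKI and rare genes more often higher. Among the 20 genes with the highest mean in Kushen, 17 were lower and 0 higher (median log2 fold change -0.4). Among the 20 with the highest mean in CKI, 15 were lower and 0 higher (median -0.318). EEF1A1, the elongation factor that brings aminoacyl-tRNA to the ribosome, held 4879, 5079 and 5198 CPM in the 3 CKI libraries and 6535, 6793 and 6456 CPM in the 3 Kushen libraries. HMGA1, a chromatin protein, held 3675, 3833 and 4070 CPM in CKI against 5483, 6116 and 6165 CPM in Kushen. Both genes were lower in every CKI library than in any Kushen library, with log2 fold changes of -0.38 ± 0.038 (SE) and -0.62 ± 0.048.

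In deciles of mean expression, the top decile had 192 genes higher and 631 lower and a median log2 fold change of -0.0863. The fifth decile had 309 higher, 299 lower and a median of 0.0152. The lowest decile had 173 higher, 19 lower and a median of 0.243. As shares, 13.5% were higher and 44.4% lower in the top decile, against 12.2% and 1.34% in the lowest. The shares over all genes set beside the lists below are not matched for expression, so a list of abundant or rare genes may differ from them for that reason, which was not tested. With library totals the medians of the top and lowest deciles were -0.0111 and 0.317, so the order stayed while the sign of the top decile held with 355 higher and 448 lower. Requiring 10 counts in every CKI and Kushen library left 650 genes of the lowest decile, whose median was 0.16. Depth limits the low genes, where fewer calls were possible in either direction.

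**Figure D2:**
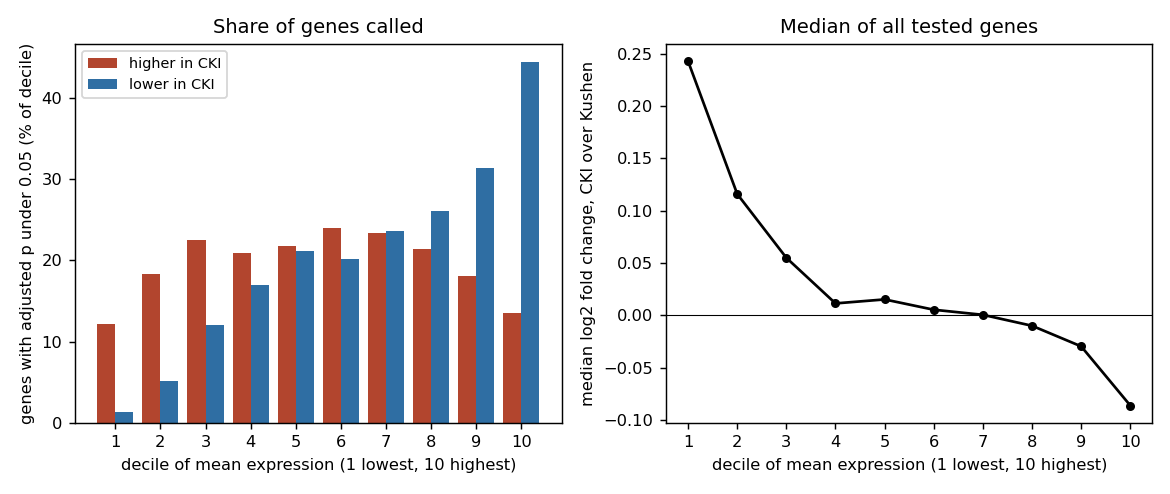
Left, the percentage of the genes of each expression decile that were higher (red) or lower (blue) in CKI at an adjusted p under 0.05; right, the median log2 fold change over the genes in it. The median runs from 0.243 in the lowest decile to -0.0863 in the highest.

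Transcription factors of the immediate early response rose, and FOSB and FOS had the largest rises of all genes whose mean log2 CPM reached 1. All 13 AP-1 genes in the table passed the filter on low counts, 10 were higher, 0 lower, and their median log2 fold change was 0.556. FOS, a partner of JUN in AP-1, held 155, 168 and 172 CPM in CKI, 13.3, 13.2 and 21.7 CPM in Kushen and 209, 231 and 230 CPM in Baituling. Its log2 fold change was 3.37 ± 0.11 (SE, adjusted p = 4.2e-14, edgeR). The CKI libraries lay far above the Kushen libraries and below the Baituling libraries. FOSB, a FOS relative whose gene overlaps one on the opposite strand, held 16.7, 16.2 and 13.0 CPM in CKI and 1.21, 1.35 and 1.86 CPM in Kushen, a log2 fold change of 3.38 ± 0.17. JUNB held 369, 374 and 403 CPM in CKI and 127, 150 and 173 CPM in Kushen (1.35 ± 0.076). ATF3, a stress-induced partner, was also more than 2-fold higher (1.53 ± 0.096), while JUN rose under 2-fold (0.78 ± 0.07).

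The EGR, IER, KLF and NR4A group had 30 tested genes, 24 higher, 0 lower and a median log2 fold change of 0.789. EGR1, a zinc finger factor induced by MAP kinase signals, held 466, 482 and 534 CPM in CKI, 79.9, 76.9 and 115 CPM in Kushen and 128, 166 and 220 CPM in Baituling. The CKI libraries lay far above the others, and Kushen and Baituling did not overlap either. Its log2 fold change was 2.45 ± 0.14 (adjusted p = 2.9e-10, edgeR). HES1, a Notch target and transcriptional repressor, held 60.3, 59.9 and 69.2 CPM in CKI against 16.8, 12.9 and 20.1 CPM in Kushen (1.93 ± 0.11). EGR2 (1.98 ± 0.17) rose past 2-fold at a low level of 5.89 ± 0.849 CPM (SD, n = 3) in CKI. KLF10, a factor induced by TGF-beta, rose under 2-fold (0.72 ± 0.043), and so did GADD45A, a growth arrest gene (0.99 ± 0.053).

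The promoters of EGR1 and SRF are shown because they hold the same motif while only EGR1 passed the test. The CArG box, the site of serum response factor (SRF), was searched on both strands of the whole RefSeq promoter sequence (GRCh38.p14), which was found for 11377 tested genes. Only the printed windows, here and below, were limited to the 250 bases before the start. The box occurred in 3 of 23 promoters of the EGR, IER, KLF and NR4A group (13.0%), those of EGR1, SRF and RCAN1. Its share was 4.05% among the 173 promoters of genes past 2-fold higher and 1.07% among all promoters. Under 2-fold it was 0.87% for higher and 1.24% for lower genes. RCAN1, like SRF, was not called (log2 fold change 0.06, adjusted p = 0.33, edgeR). The windows below lie at chr5:138465354-138465425 (plus strand) and chr6:43171219-43171268 (plus strand), with the CArG boxes in capitals.
EGR1: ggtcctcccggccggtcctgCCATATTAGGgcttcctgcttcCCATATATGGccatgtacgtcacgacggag
SRF: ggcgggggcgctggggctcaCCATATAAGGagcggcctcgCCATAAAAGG
Both windows hold 2 boxes. EGR1 rose as given above, while SRF itself held 184, 184 and 198 CPM in CKI and 170, 190 and 188 CPM in Kushen, which overlap (0.05 ± 0.047, adjusted p = 0.44, edgeR). With library totals the value for SRF was 0.12 (adjusted p = 0.0264).

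Inhibitors of MAP kinase signalling split. Of 19 tested, 12 were higher and 3 lower, with a median log2 fold change of 0.262. DUSP1, which dephosphorylates p38, JNK and ERK, had the smallest p of all genes. It held 241, 256 and 281 CPM in CKI, 61.5, 63.1 and 69.7 CPM in Kushen and 141, 146 and 156 CPM in Baituling (2.00 ± 0.06, adjusted p = 2.5e-14, edgeR). The 3 groups did not overlap, with CKI highest. DUSP5, which acts on nuclear ERK, was higher (0.43 ± 0.053), whereas the ERK phosphatases DUSP4 (-0.32 ± 0.038) and DUSP6 (-0.24 ± 0.04) were lower. The Sprouty genes SPRY2 (0.26 ± 0.043) and SPRY4 (0.28 ± 0.041) rose slightly.

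NF-kB subunits and feedback targets were higher as a group but mostly under 2-fold. Of 18 tested, 15 were higher, 1 lower and the median log2 fold change was 0.335. BIRC3, an inhibitor of apoptosis, held 117, 111 and 111 CPM in CKI and 60.3, 57.7 and 57.4 CPM in Kushen (0.95 ± 0.049, adjusted p = 5.9e-11, edgeR). The adaptor TRAF1 held 29.3, 32.4 and 31.8 CPM against 14.5, 13.3 and 16.9 CPM (1.07 ± 0.082). CKI lay above Kushen in each library of both genes. MAP3K14, the kinase that processes NFKB2, rose as well (0.96 ± 0.056), as did NFKB2 (0.53 ± 0.046) and the inhibitor gene NFKBIA (0.25 ± 0.044). TNFAIP2 was the member that fell (-0.21 ± 0.052).

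NF-kB sites are shown for 4 genes described here, 3 of them called higher and NFKB1 not called. The site was found in 7 of 16 promoters of the group (43.8%) and in 8.87% of all promoters. Among genes higher past 2-fold its share was 9.83%, near that of all promoters. Under 2-fold it was 8.89% for higher and 8.95% for lower genes. The windows, on GRCh38.p14, lie at chr11:102317265-102317314 (plus), chr6:137867172-137867233 (plus), chr14:35404801-35404850 (minus) and chr4:102501290-102501339 (plus), with the sites in capitals.
BIRC3: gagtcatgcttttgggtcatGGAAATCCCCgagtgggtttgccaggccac
TNFAIP3: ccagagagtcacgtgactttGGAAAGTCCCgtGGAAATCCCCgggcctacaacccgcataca
NFKBIA: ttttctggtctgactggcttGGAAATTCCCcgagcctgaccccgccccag
NFKB1: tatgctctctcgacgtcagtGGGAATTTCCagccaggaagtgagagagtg
TNFAIP3, the A20 deubiquitinase, held 15.9, 14.7 and 13.7 CPM in CKI and 8.09, 8.98 and 8.56 CPM in Kushen (0.79 ± 0.092). NFKB1 held 28.6, 30.6 and 29.3 CPM in CKI and 26.6, 29.9 and 25.9 CPM in Kushen, which overlap (0.10 ± 0.066, adjusted p = 0.23, edgeR; 0.18 with library totals, adjusted p = 0.0407). REL, whose window is not printed, held a site 46 bases before the start, closer than that of BIRC3 at 199 bases. A match is a stretch of letters and does not show binding.

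Cytokine lists held rises past 2-fold beside members that fell or were not called. The interleukin-1 family had 12 tested genes of 19 in the table, with 8 higher and 1 lower and a median log2 fold change of 0.315. IL1A held 18.5, 18.8 and 17.6 CPM in CKI, 5.19, 5.05 and 4.08 CPM in Kushen and 8.49, 9.32 and 11.2 CPM in Baituling (1.93 ± 0.11). IL1B, the secreted form measured by the study, held 23.8, 27.2 and 26.9 CPM in CKI, 12.4, 11.5 and 13.0 CPM in Kushen and 36.6, 39.5 and 38.6 CPM in Baituling (1.08 ± 0.074, adjusted p = 2.1e-09, edgeR). For IL1A the CKI libraries were highest of the 3 groups, for IL1B the Baituling libraries were. IL18 was the member that fell (-0.21), a call lost without CKI replicate 3 (adjusted p = 0.0531, edgeR) and with library totals (0.109).

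Among chemokines and receptors, 12 of 17 genes in the table were tested, 6 were higher and 1 lower, and the median log2 fold change was 0.76. CXCL8, which attracts neutrophils, held 51.6, 51.5 and 62.4 CPM in CKI and 26.8, 23.0 and 25.4 CPM in Kushen (1.14 ± 0.079). CXCL2 rose less (0.62 ± 0.17; adjusted p = 0.0641 with DESeq2), and CXCL1 held 4.81 ± 0.28 CPM in CKI and 4.46 ± 1.06 CPM in Kushen (SD, n = 3), which did not differ by the test (0.12 ± 0.14, adjusted p = 0.53, edgeR). CXCL1, CXCL2 and CXCL3 are near copies, and the counting of shared reads is not stated, so the split among them is uncertain.

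Of 25 tested genes of the colony-stimulating factors and the IL-6 family, 9 were higher and 3 lower. CSF2, the granulocyte-macrophage factor, held 12.9, 14.3 and 17.2 CPM in CKI, 3.66, 3.45 and 3.33 CPM in Kushen and 29.1, 28.6 and 30.0 CPM in Baituling (2.09 ± 0.11, adjusted p = 1.1e-10, edgeR). IL6 held 24.3, 26.2 and 29.3 CPM in CKI, 18.8, 16.5 and 19.3 CPM in Kushen and 111, 120 and 127 CPM in Baituling (0.55 ± 0.079). CKI lay above Kushen and below Baituling in both genes. IL11, a fibrogenic relative, moved the other way, with 114, 121 and 119 CPM in CKI and 149, 155 and 153 CPM in Kushen (-0.37 ± 0.043).

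In the TNF group, 7 of 20 tested genes were higher (35%) and 4 lower (20%), beside 19.6% and 20.2% of all genes. TNFSF15, a ligand of death receptor 3, held 89.9, 95.2 and 97.7 CPM in CKI and 32.8, 38.4 and 35.1 CPM in Kushen (1.41 ± 0.058), whereas TNFSF10, the ligand TRAIL, held 64.3, 62.9 and 68.4 CPM against 92.4, 88.0 and 86.8 CPM (-0.45 ± 0.049). PTGS2, the inducible cyclooxygenase, held 8.98, 10.4 and 8.25 CPM in CKI and 2.66, 2.42 and 2.26 CPM in Kushen (1.91 ± 0.13). Of 41 tested interferon-stimulated genes, 17 were higher and 3 lower with a median log2 fold change of 0.172, among them GBP2 (0.31 ± 0.041). Of 17 tested genes of MHC class I presentation 1 was higher (5.88%) and 5 lower (29.4%), and with library totals this turned to 6 higher and 3 lower.

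**Figure D3:**
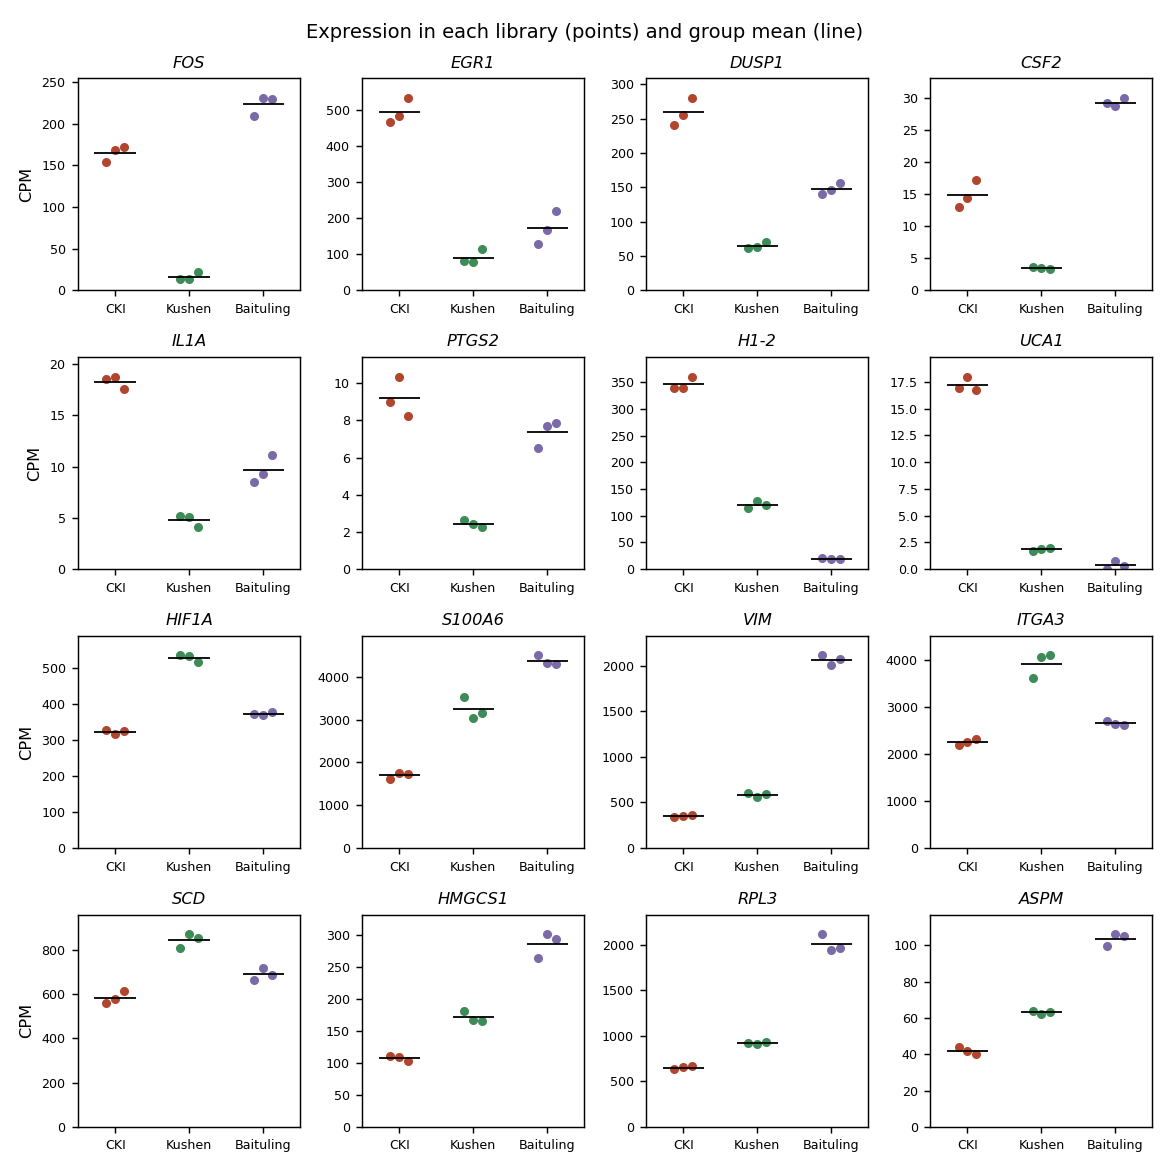
CPM in each library (points, with the group mean as a line) for 16 genes in cells treated with CKI, Kushen or Baituling, each panel starting at 0. In the upper 8 panels the CKI points lie above the Kushen points, and in the lower 8 they lie below; the Baituling points lie on either side.

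Replication-dependent histone genes rose most as a list. Of 35 measured, 15 passed the filter, and of these 13 were higher, 9 of them past 2-fold, 0 were lower, and the median log2 fold change was 1.31. Rare members could pass through the group in which they are high, so the 20 that did not pass bear on this count. H1-2, a linker histone, held 339, 339 and 361 CPM in CKI, 115, 127 and 121 CPM in Kushen and 20.6, 19.03 and 19.5 CPM in Baituling (1.52 ± 0.046, adjusted p = 2.5e-14, edgeR). H4C8 held 22.4, 23.0 and 21.7 CPM in CKI and 4.95, 5.95 and 6.12 CPM in Kushen (1.98 ± 0.1). H2BC21 held 17.1, 13.5 and 14.7 CPM in CKI and 3.66, 3.12 and 4.35 CPM in Kushen (2.03 ± 0.14). H1-4 (2.46 ± 0.19) and H2AC6 (0.91 ± 0.057) moved the same way.

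The CKI libraries lay above the Kushen libraries in these 5 genes. The mRNA of these genes usually ends in a stem loop and carries no poly(A) tail. Of 393 measured RNAs without a poly(A) tail that are not histones, 246 had no count and 14 passed the filter. Rare members could again pass through the group in which they are high. Of the 14, 4 were higher (28.6%, beside 19.6% of all genes), including the U3 copy SNORD3B-2 (2.85 ± 0.29), and 0 lower. RN7SK held 2.51, 2.42 and 2.57 CPM in CKI and 2.17, 1.97 and 1.33 CPM in Kushen (adjusted p = 0.085, edgeR; 0.0468 without Kushen replicate 1). Whether RNA was selected by its tail is not given in the sources used here, and the part of this in the result was not tested. Reads of near-identical histone genes may have been split by the counting. H3-3B, a replacement histone with a polyadenylated mRNA, held 443, 438 and 456 CPM in CKI and 453, 476 and 484 CPM in Kushen (-0.08 ± 0.04, adjusted p = 0.13, edgeR), and it was lower without Kushen replicate 1 (-0.11, adjusted p = 0.0399).

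Histone promoters are shown for the CCAAT box that most of them share. The letters CCAAT, on either strand, occurred in 12 of 14 histone promoters (85.7%), in 15 of 18 promoters of cholesterol genes (83.3%) and in 73.2% of 56 promoters of mitosis genes, lists that held mostly lower genes, and in 36.3% of all promoters. Windows on GRCh38.p14 lie at chr6:26056503-26056547 (minus), chr6:26156255-26156299 (plus) and chr6:26123980-26124128 (minus), with the box in capitals.
H1-2: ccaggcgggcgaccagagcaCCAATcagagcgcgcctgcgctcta
H1-4: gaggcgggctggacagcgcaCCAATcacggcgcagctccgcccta
H2BC4: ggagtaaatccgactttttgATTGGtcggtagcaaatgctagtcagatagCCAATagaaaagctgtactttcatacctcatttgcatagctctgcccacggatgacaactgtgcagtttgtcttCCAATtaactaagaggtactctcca
The window of H2BC4 is also that of its divergent neighbour H2AC6 on the other strand. H2BC4 rose by 1.47 on the log2 scale and H2AC6 by 0.91.

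Most genes of cytosolic ribosomal proteins were lower in CKI, each of those called by less than 2-fold. Of 85 tested cytosolic ribosomal protein genes 71 were lower and 0 higher, with a median log2 fold change of -0.24, a fold of 0.847. RPLP0, a stalk protein, held 1264, 1315 and 1360 CPM in CKI, 1867, 1885 and 1860 CPM in Kushen and 3625, 3339 and 3384 CPM in Baituling (-0.51 ± 0.041, adjusted p = 2.1e-08, edgeR). RPL3 held 638, 653 and 666 CPM in CKI against 918, 906 and 938 CPM in Kushen (-0.50 ± 0.041). In both genes CKI was lowest and Baituling highest, without overlap. With library totals 64 were lower and 0 higher.

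Of 49 tested initiation and elongation factors 16 were lower (32.7%) and 3 higher (6.12%), and with library totals 9 were lower and 9 higher. Of 75 tested mitochondrial ribosomal proteins 17 were lower and 10 higher, 22.7% and 13.3% beside 20.2% and 19.6% of all genes. Of 72 genes of ribosome biogenesis 13 were lower (18.1%) and 6 higher (8.33%). Both of these lists turned to more higher than lower with library totals (23 against 10 and 15 against 5). NPM1, a nucleolar chaperone, was lower (-0.45 ± 0.04). MRPS24 was the mitochondrial exception, at 10.6, 10.5 and 9.99 CPM in CKI against 3.70, 4.23 and 3.95 CPM in Kushen (1.39 ± 0.11).

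Cholesterol synthesis and uptake genes were lower in 20 of 25 tested and higher in 0, with a median log2 fold change of -0.292, the lowest of the lists outside the cell line markers. HMGCS1, an early enzyme of the pathway, held 110, 109 and 103 CPM in CKI and 181, 167 and 166 CPM in Kushen (-0.67 ± 0.052). The regulator SREBF2 fell too (-0.32 ± 0.049). With library totals 16 were lower and 1 higher.

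Fatty acid synthesis followed, with 14 of 22 tested lower and 1 higher (median -0.187). SCD, the stearoyl-CoA desaturase, held 562, 578 and 613 CPM in CKI and 810, 872 and 854 CPM in Kushen (-0.53 ± 0.045), and FASN was lower too (-0.48 ± 0.053). Of 14 tested genes of the pentose phosphate pathway and NADPH supply, 9 were lower and 1 higher. Of 35 tested genes of fatty acid oxidation and peroxisomes 12 were lower and 4 higher. SUCLG2, of the TCA cycle, fell by 0.71 on the log2 scale, and 11 of 28 tested genes of that cycle were lower and 3 higher, a balance of 5 and 5 with library totals.

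Many proliferation genes were lower, each of those called by less than 2-fold. Of 66 tested genes of mitosis, spindle and kinetochore, 42 were lower and 1 higher (median log2 fold change -0.202). ASPM, a spindle pole protein, held 43.97, 41.7 and 40.0 CPM in CKI, 63.9, 62.0 and 63.4 CPM in Kushen and 99.8, 106 and 105 CPM in Baituling (-0.59 ± 0.05). The kinesin KIF20A fell as well (-0.53 ± 0.063), and CENPN was the exception (0.20 ± 0.064), a call lost without CKI replicate 1 (adjusted p = 0.109), Kushen replicate 1 (0.0824) or Kushen replicate 3 (0.0654) and with DESeq2 (0.0624). Of 47 tested DNA replication genes 19 were lower, 0 higher and 28 not called. LIG1, the ligase of Okazaki fragments, held 22.3, 22.5 and 19.6 CPM in CKI and 31.5, 30.6 and 32.9 CPM in Kushen (-0.56 ± 0.064), and MCM3, of the replicative helicase, was lower (-0.35 ± 0.043).

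Nucleotide synthesis had 24 of 35 tested genes lower and 0 higher (median -0.205). DUT, which removes dUTP, held 30.0, 30.1 and 30.6 CPM in CKI and 48.4, 46.2 and 49.3 CPM in Kushen (-0.67 ± 0.05). TYMS, the thymidylate synthase, was lower (-0.51 ± 0.067), whereas RRM2, a ribonucleotide reductase subunit, held 50.4 ± 3.26 CPM in CKI and 51.8 ± 2.63 CPM in Kushen (SD, n = 3; -0.04 ± 0.055, adjusted p = 0.63, edgeR). With library totals the 3 lists kept more lower than higher genes, 32 against 4 for mitosis, 16 against 2 for replication and 17 against 1 for nucleotide synthesis.

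Of 30 tested genes of G1 cyclins, CDKs, RB and E2F, 5 were higher (16.7%) and 8 lower (26.7%), beside 19.6% and 20.2% of all genes, and 17 were not called. With library totals 9 of them were higher and 8 lower. CDKN1A, the CDK inhibitor p21, held 352, 373 and 378 CPM in CKI and 208, 234 and 228 CPM in Kushen (0.72 ± 0.046), and CCND1, cyclin D1, held 457, 451 and 460 CPM against 622, 646 and 621 CPM (-0.47 ± 0.04). GDF15, a stress cytokine of the TGF-beta family, held 181, 193 and 215 CPM in CKI and 58.2, 69.6 and 74.6 CPM in Kushen (1.54 ± 0.071), whereas CCNG1, cyclin G1, fell by 0.54 on the log2 scale. MYC was higher (0.23 ± 0.05).

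Matrix, adhesion and cytoskeleton genes were among the abundant genes that were lower. Of 44 tested collagens, laminins and matrix glycoproteins 22 were lower and 6 higher. Past 2-fold 3 of them were higher and 0 lower, and the log2 fold changes of the list ran from -0.908 to 2.68. Of 23 tested adhesion molecules 11 were lower and 1 higher. COL13A1, a membrane collagen, held 175, 173 and 175 CPM in CKI and 282, 289 and 293 CPM in Kushen (-0.72 ± 0.038). COL1A1 moved the other way (0.65 ± 0.083). ITGA3, an integrin that binds laminin, held 2196, 2245 and 2324 CPM in CKI, 3620, 4052 and 4095 CPM in Kushen and 2697, 2644 and 2621 CPM in Baituling (-0.80 ± 0.045, adjusted p = 1.5e-10, edgeR). Of 16 tested integrins 6 were lower and 1 higher.

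VIM, the mesenchymal filament vimentin, held 336, 351 and 364 CPM in CKI, 599, 563 and 591 CPM in Kushen and 2116, 2014 and 2079 CPM in Baituling (-0.74 ± 0.042). S100A6, a calcium-binding protein, held 1623, 1751 and 1721 CPM in CKI and 3539, 3042 and 3143 CPM in Kushen (-0.93 ± 0.05). In the actin list 15 of 30 tested genes were lower and 4 higher, with ACTB at -0.43 ± 0.042 and ACTG1 at -0.49 ± 0.04. FLNC, a filamin, moved the other way (0.40 ± 0.045). The actin list also holds targets of SRF, and the list of 20 mesenchymal and epithelial genes had 9 lower and 3 higher although its median was 0.0213. MMP1, the interstitial collagenase, held 246, 258 and 262 CPM in CKI and 97.8, 104 and 103 CPM in Kushen (1.33 ± 0.043). Of 25 tested metalloproteinases and inhibitors 7 were lower (28%, beside 20.2% of all genes), including TIMP3 (-0.38 ± 0.042), and 4 higher (16%, beside 19.6%). With library totals 8 of that list were higher and 6 lower.

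**Figure D4:**
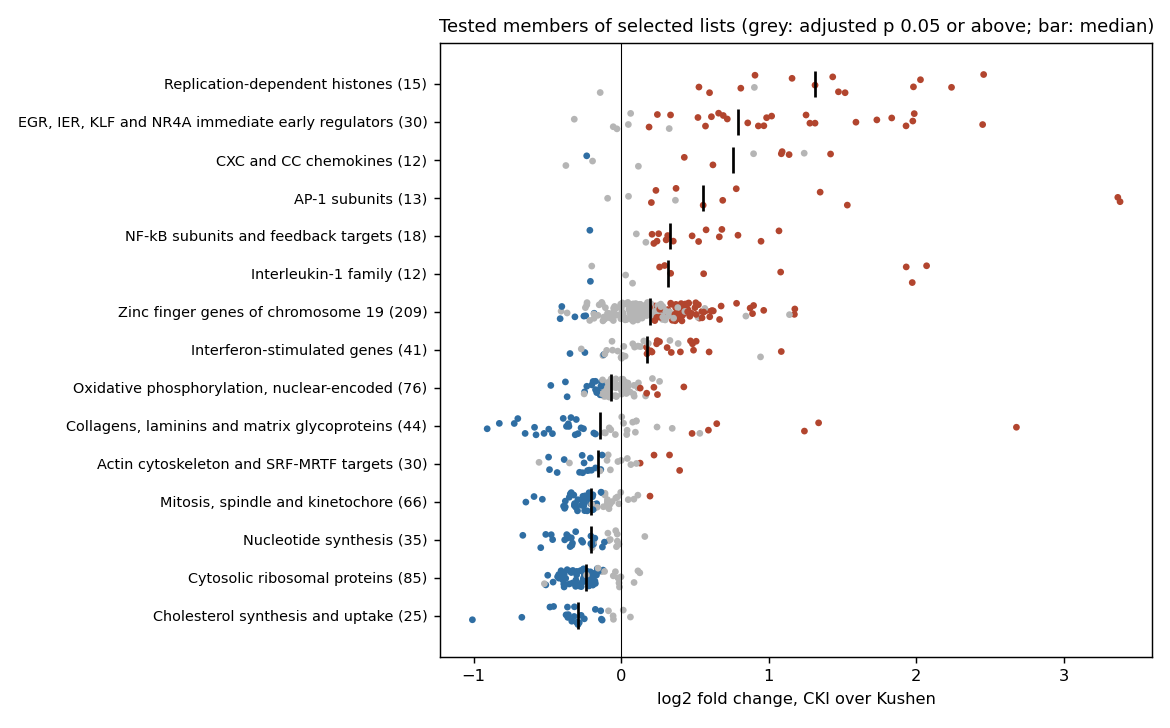
Log2 fold change (CKI over Kushen) of each tested member of 15 lists, with the median as a bar and members with an adjusted p of 0.05 or above in grey. Histones and immediate early genes spread to the right of 0, while ribosomal protein and cholesterol genes form narrow clusters to its left.

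Xenobiotic and redox genes gave a mixed picture. CYP1A1, the cytochrome induced by the aryl hydrocarbon receptor, held 158, 155 and 154 CPM in CKI, 62.1, 59.0 and 56.6 CPM in Kushen and 2.39, 2.36 and 2.48 CPM in Baituling (1.39 ± 0.045, adjusted p = 3.8e-14, edgeR). The Baituling libraries were far below both. Of 11 tested genes of the receptor and its targets 7 were higher and 2 lower, with the receptor AHR itself slightly lower (-0.16 ± 0.041), a call lost with library totals (adjusted p = 0.108). AKR1C1, a steroid-reducing enzyme, held 32.8, 35.8 and 34.6 CPM in CKI and 11.5, 11.2 and 10.7 CPM in Kushen (1.63 ± 0.073), though reads of AKR1C family members may be shared. Of 30 tested genes of NRF2, KEAP1 and targets 11 were higher and 13 lower, and with library totals 12 higher and 9 lower. GPX1 (-0.56 ± 0.064) and the ferritin chain FTL (-0.34 ± 0.046) were lower, and 12 of 29 tested peroxidases and dismutases were lower with 1 higher. MT2A, a metallothionein, held 1382, 1465 and 1484 CPM in CKI and 2094, 1965 and 1979 CPM in Kushen (-0.48 ± 0.044).

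Stress responses of the endoplasmic reticulum also divided. Of 41 tested genes 19 were lower and 11 higher, turning to 10 lower and 13 higher with library totals. HSP90B1, a chaperone of the reticulum, held 753, 731 and 770 CPM in CKI and 1208, 1170 and 1196 CPM in Kushen (-0.66 ± 0.039), and HSPA5 was lower (-0.32 ± 0.037). PPP1R15A, which reverses phosphorylation of eIF2alpha, held 358, 384 and 376 CPM against 190, 183 and 199 CPM (0.97 ± 0.046), and DDIT3, or CHOP, was higher (1.0001 ± 0.073). ATF4 was lower (-0.16 ± 0.044), a call lost with library totals (adjusted p = 0.0864, edgeR). HSPA6, an inducible cytosolic chaperone, rose from a low level (2.11 ± 0.2). Proteasome subunits were higher in 11 of 41 (26.8%, beside 19.6% of all genes) and lower in 4 (9.76%, beside 20.2%). SLC3A2, the heavy chain of amino acid exchangers, held 512, 509 and 519 CPM in CKI and 265, 286 and 285 CPM in Kushen (0.88 ± 0.043).

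Hypoxia-related genes did not move as one. HIF1A, whose gene overlaps one on the opposite strand, held 327, 316 and 325 CPM in CKI, 534, 532 and 516 CPM in Kushen and 370, 370 and 378 CPM in Baituling (-0.71 ± 0.038, adjusted p = 8e-11, edgeR). ADM, a hypoxia-inducible peptide gene, was higher (0.94 ± 0.061), and VEGFA held 823, 823 and 803 CPM in CKI and 562, 530 and 596 CPM in Kushen (0.54 ± 0.044). Of 46 tested genes of glycolysis and hypoxia 18 were higher (39.1%) and 10 lower (21.7%), beside 19.6% and 20.2% of all genes.

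Chromosome 19 had the highest median of the chromosomes. Of 1036 tested genes there, 268 were higher (25.9%) and 160 lower (15.4%), and the median log2 fold change was 0.0815. Its zinc finger genes, many of them repressors with a KRAB domain, had 67 of 209 tested higher and 6 lower and a median of 0.194. ZNF114 held 20.8, 22.2 and 20.9 CPM in CKI and 8.41, 10.4 and 9.54 CPM in Kushen (1.17 ± 0.088), and ZNF841 rose by 0.67 on the log2 scale. These genes are related in sequence, and any reads shared among them may be split by the counting. Of 660 tested genes of chromosome 7, 176 were higher (26.7%) and 100 lower (15.2%). Chromosome 4 had 541 tested genes, 73 higher (13.5%) and 142 lower (26.2%). Of 775 tested long noncoding RNAs 129 were higher (16.6%) and 42 lower (5.42%), both below the 19.6% and 20.2% of all genes. Their median log2 fold change was 0.157, and past 2-fold 25 were higher and 2 lower. UCA1, a long noncoding RNA that overlaps another gene, held 17.0, 18.0 and 16.7 CPM in CKI, 1.69, 1.89 and 2.00 CPM in Kushen and 0.0488, 0.768 and 0.331 CPM in Baituling (3.21 ± 0.16).

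**Figure D5:**
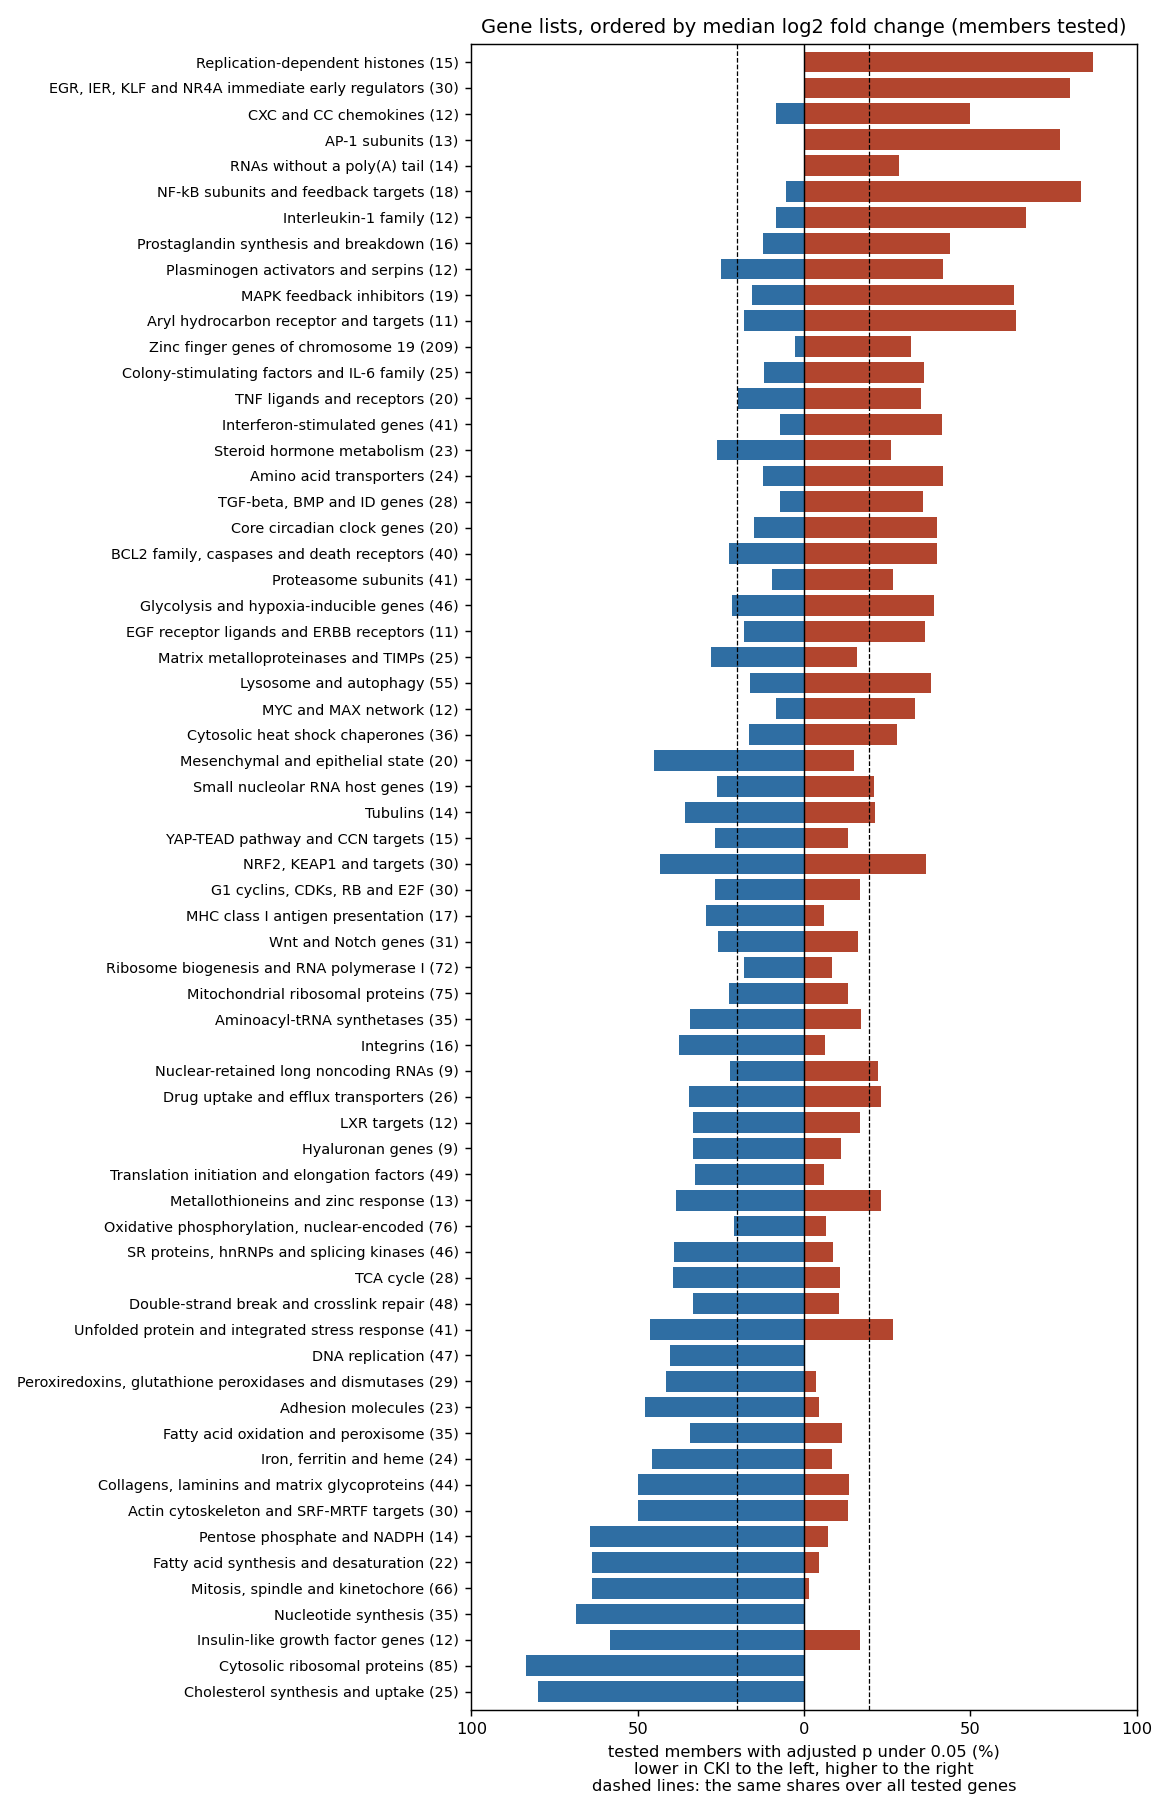
For gene lists with at least 9 tested members, the percentage of members higher (red, right) and lower (blue, left) in CKI at an adjusted p under 0.05, ordered by the median log2 fold change; the dashed lines mark 19.6% and 20.2%, the shares over all tested genes. Histones stand at the top with 86.7% higher, and ribosomal protein genes reach 83.5% lower.

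Other changes lay outside the groups described above. ALPP, placental alkaline phosphatase, held 10.0, 9.23 and 9.95 CPM in CKI and 1.33, 1.93 and 1.55 CPM in Kushen (2.60 ± 0.16). SLC14A1, a urea transporter, rose by 2.06 ± 0.19. Among falls of genes whose mean log2 CPM reached 1, the deepest were those of MAEL at 1.45, 1.33 and 1.18 CPM in CKI against 2.78, 3.45 and 3.50 CPM in Kushen (-1.29 ± 0.22) and RIMS1 (-1.28 ± 0.2). HSD17B8, a mitochondrial dehydrogenase, held 7.02, 7.74 and 6.16 CPM against 15.4, 16.3 and 16.2 CPM (-1.20 ± 0.086). Among changes under 2-fold, the endocytic adaptor SH3KBP1 rose by 0.69 on the log2 scale. The clock repressor NR1D1 held 43.5, 44.8 and 44.2 CPM in CKI and 15.1, 16.9 and 20.3 CPM in Kushen (1.35 ± 0.077), and IGFBP3 fell by 0.50 on the log2 scale.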

How the data were processed

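Per the labels and the study's methods, the authors trimmed reads with Trim Galore 0.3.7, aligned them with STAR 2.5.3a to hg19 and deposited whole-number counts per gene, not normalized. The counting program and its treatment of shared reads are not given in the sources used here. The libraries were unstranded, so genes overlapping on opposite strands cannot be told apart. Such an overlap was present for 34.6% of tested genes. It is not stated for each named gene, and JUNB, VIM, MMP1, PTGS2, HSP90B1, CCND1 and MYC also have one. The table held 24566 rows. Dropping 222 repeated Ensembl genes left 24344, of which 14195 passed edgeR's filterByExpr (minimum count 10, minimum total 15). Untreated libraries were not analysed here.

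All 9 libraries entered one quasi-likelihood fit in edgeR 4.0.16 (R 4.3.3) with group as the only term and TMM scaling. All p-values are two-sided, with Benjamini-Hochberg adjustment across the genes tested. Total counts were 20144628 to 23782071 per library, so counting error is small for abundant genes and large near the filter. The 3 libraries of a group are given as separate samples. The p-values set the group difference against the spread between libraries of a group, estimated from all 9 libraries with information shared across genes. That spread may be technical. An exact permutation test of 3 against 3 cannot give a p below 0.1. Replicates differed by more than sampling noise, with a chi-square per gene of 2.095 to 6.85 within the CKI and Kushen groups. The common biological coefficient of variation was 4.534%. The fit was also run on counts simulated from the means and spread of these data, which cannot show whether that spread was estimated rightly.

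The gene lists, the members and the rule for named genes were chosen with earlier results of these data known. Lists overlap and are described by counts and medians, without a set test. Named were, where mean log2 CPM reached 1, the 15 largest rises and 10 largest falls past 2-fold without overlap between the groups, the 8 higher and 8 lower genes under 2-fold with the smallest p, up to 4 members of each list with the smallest p and the member with the smallest p in the other direction, and the genes the study measured, some of which are not reported here; others were named after their values were seen, as examples of a group. Alternatives were other scalings, filters, DESeq2 1.42.0, offsets for GC content and length, a replicate block and leaving out each library. Promoter sequences come from RefSeq on GRCh38.p14.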

Additional observations from a re-analysis of the deposited data

How the results depend on the processing

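The counts of called genes stayed within 1.5 times the reported ones under upper quartile scaling, DESeq2 size factors, the DESeq2 test, no filter, the 6 libraries of the comparison alone, GC and length offsets and the rows as deposited. With library totals 4218 genes were higher and 1837 lower, since that scaling shifts all genes by 0.0752. Requiring 10 counts in every CKI and Kushen library left 151 genes past 2-fold, 136 higher and 15 lower, since fewer low genes were tested. The test against a fold of 1.5 left 149 genes, 127 higher and 22 lower, and the test against a fold of 2 left 42 past 2-fold, 42 higher and 0 lower, since both ask for more than a difference from 0. Leaving out 1 library at a time gave 4550 to 5839 genes with an adjusted p under 0.05 (2213 to 2739 higher, 2337 to 3100 lower) and 265 to 300 past 2-fold (232 to 267 higher, 26 to 38 lower). No gene called in both the reported fit and an alternative changed direction.

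The replicate numbers did not pair the libraries: the correlations of same-numbered deviations were 0.1234, -0.04545 and -0.0478. A replicate block gave 5356 genes, 2635 higher and 2721 lower, with 269 past 2-fold, 241 higher and 28 lower. Combined with GC and length offsets it changed 1 call among the 119 genes named, H3-3B at -0.11 (adjusted p = 0.028, edgeR), a call that the offsets without the block also changed (adjusted p = 0.0218), and the block alone changed 0. Library totals moved the medians of 60 of 72 lists by more than the replicate SD, other changes of scaling, filter or test moved at most 9, and leaving out a library moved at most 18 (without Kushen replicate 3). Depth limits the genes past 2-fold, whose median mean log2 CPM was 0.177.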

Other observations

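Several groups outside the main account also held changes. Of 55 tested genes of lysosomes and autophagy 21 were higher and 9 lower, with the galactosidase GLA, whose gene overlaps one on the opposite strand, at 86.8, 80.4 and 86.1 CPM in CKI and 60.4, 61.3 and 57.8 CPM in Kushen (log2 fold change 0.50 ± 0.055, SE) and NAGLU moving the other way (-0.66 ± 0.063). Of 24 tested amino acid transporters 10 were higher and 3 lower, including SLC7A5, the light chain of a neutral amino acid exchanger (0.43 ± 0.043). Of 40 tested BCL2 family, caspase and death receptor genes 16 were higher (40%, beside 19.6% of all genes), including CASP2 (0.53 ± 0.063). In the same list 9 were lower (22.5%, beside 20.2%). Of 20 tested core clock genes 8 were higher and 3 lower, including PER1 (0.76 ± 0.084). Of 28 tested TGF-beta, BMP and ID genes 10 were higher and 2 lower, including the inhibitory SMAD7 (0.60 ± 0.079).

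Among lists with more lower than higher genes, 7 of 12 tested insulin-like growth factor genes were lower and 2 higher. IGFBP4, a secreted binding protein, held 1413, 1494 and 1557 CPM in CKI and 1934, 2076 and 2155 CPM in Kushen (-0.47 ± 0.049). Of 24 tested genes of iron, ferritin and heme 11 were lower and 2 higher, and of 46 tested SR proteins, hnRNPs and splicing kinases 18 were lower and 4 higher, the latter 7 and 9 with library totals. Of 76 tested nuclear-encoded genes of oxidative phosphorylation 16 were lower (21.1%, beside 20.2% of all genes) and 5 higher (6.58%, beside 19.6%), 7 and 16 with library totals. Of 15 tested YAP-TEAD genes 4 were lower (26.7%) and 2 higher (13.3%), 3 and 5 with library totals. CCN2, a matricellular protein whose gene overlaps one on the opposite strand, held 541, 531 and 564 CPM in CKI and 852, 866 and 875 CPM in Kushen (-0.66 ± 0.042). The EGF receptor ligand HBEGF moved the other way (0.51 ± 0.044), in a list of 11 tested genes with 4 higher (36.4%) and 2 lower (18.2%).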
